A study of Mus musculus with 9 samples.

Results

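The genes described here carry the Clec name of C-type lectin receptors and were followed across accessible chromatin of mouse peritoneal macrophages. Some of them, such as Clec16a and Clec11a, encode other proteins. Members were the protein-coding RefSeq genes of GRCm38 whose symbol is Clec followed by a digit, which gave 33 of 21631 protein-coding genes on chromosomes 1 to 19 and X. ATAC-seq, which uses a transposase to insert adapters into open DNA, was applied to 9 samples of sorted macrophages, forming 3 groups of 3. All mice had the genotype Cx3cr1CreERT2-IRES-EYFP/+ Rosa26-stopfl-tdTomato/+, so that tamoxifen could switch on the tdTomato reporter only in cells that use the Cx3cr1 promoter at that time. All also received complexes of 5 µg IL-4 and 25 µg antibody to IL-4, given every other day and begun 4 days ahead of collection. Monocyte-derived macrophages came from mice that had 2 ml thioglycollate, which recruits monocytes to the cavity, with collection on day 4. For tissue-converted macrophages, mice had 2 ml thioglycollate and a tamoxifen diet lasting 8 weeks. The labels give no further treatment for tissue-resident macrophages and no age for any mouse. Cell origin and treatment therefore cannot be told apart.

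C-type lectin receptors recognise sugars, lipids and damaged-cell ligands through a shared C-type lectin fold. Activating members such as Dectin-1 and Dectin-2 signal through the kinase Syk and the adaptor Card9 to NF-kappaB, some of them by way of the adaptors encoded by Fcer1g and Tyrobp, while inhibitory members recruit phosphatases. On macrophages they sense fungi, mycobacteria and dying cells. In the mouse genome most of the family lies in gene clusters on chromosome 6, which held 25 of the 33 members.

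Peaks of the 3 deposited lists, 1 merged list per group, were joined into sites where they overlapped by at least 1 bp. A site was given to a member if it lay in the gene body or within 10 kb on either side, and a site in the windows of several members was counted once. The series held 36843 sites, of which 41 belonged to members. Because a list stands for a whole group, no value has a spread between replicates, the groups were compared without a test, and the read depth behind a call is not known. The 95% intervals are Wilson's and cover counting error only. A site without a call may still be open below detection, and in a sorted population fewer cells open at a site cannot be told apart from less signal per cell. The annotation used gives gene ends but no exons, so a site is described only as inside or outside a gene.

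A set of promoters shows the range of patterns found, from called in all 3 lists (Clec4a3), through monocyte-derived and resident (Clec4e, Clec2d), to monocyte-derived alone (Clec7a, Clec4b1). Each is the 250 bases before the RefSeq start site in GRCm38.p6, written 5′ to 3′ along the gene, with the bases under the monocyte-derived peak in capitals. Clec4a3, which encodes Dcir3, is on the plus strand at chr6:122952265-122952514. Clec4e, which encodes the glycolipid receptor Mincle, is on the minus strand at chr6:123289872-123290121. Clec2d, which encodes Clr-b, is on the plus strand at chr6:129180365-129180614. Clec7a, which encodes the beta-glucan receptor Dectin-1, is on the minus strand at chr6:129472786-129473035. Clec4b1, which encodes DCAR, is on the plus strand at chr6:123049712-123049961.
Clec4a3: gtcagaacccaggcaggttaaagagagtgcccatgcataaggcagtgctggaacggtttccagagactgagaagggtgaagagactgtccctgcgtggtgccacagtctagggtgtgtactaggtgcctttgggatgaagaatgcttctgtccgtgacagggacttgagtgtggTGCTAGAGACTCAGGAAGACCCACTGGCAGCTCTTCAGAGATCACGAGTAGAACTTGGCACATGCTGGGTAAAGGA
Clec4e: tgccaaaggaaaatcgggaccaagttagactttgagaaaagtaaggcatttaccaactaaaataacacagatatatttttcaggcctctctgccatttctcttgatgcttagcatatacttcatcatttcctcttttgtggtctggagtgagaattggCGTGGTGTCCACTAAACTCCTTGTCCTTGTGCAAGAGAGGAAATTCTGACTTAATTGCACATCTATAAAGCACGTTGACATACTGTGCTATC
Clec2d: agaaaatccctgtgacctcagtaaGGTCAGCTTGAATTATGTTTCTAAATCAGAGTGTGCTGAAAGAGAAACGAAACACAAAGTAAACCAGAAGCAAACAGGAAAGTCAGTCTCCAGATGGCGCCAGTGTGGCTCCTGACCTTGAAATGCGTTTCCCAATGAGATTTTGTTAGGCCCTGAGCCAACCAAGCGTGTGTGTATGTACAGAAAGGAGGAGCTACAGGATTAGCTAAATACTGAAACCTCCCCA
Clec7a: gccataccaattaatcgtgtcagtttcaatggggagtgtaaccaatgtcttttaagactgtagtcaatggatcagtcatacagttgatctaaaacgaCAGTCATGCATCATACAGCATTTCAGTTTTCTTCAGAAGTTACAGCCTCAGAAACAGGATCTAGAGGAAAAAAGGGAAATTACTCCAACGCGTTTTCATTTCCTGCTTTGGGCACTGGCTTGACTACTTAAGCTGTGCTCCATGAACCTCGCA
Clec4b1: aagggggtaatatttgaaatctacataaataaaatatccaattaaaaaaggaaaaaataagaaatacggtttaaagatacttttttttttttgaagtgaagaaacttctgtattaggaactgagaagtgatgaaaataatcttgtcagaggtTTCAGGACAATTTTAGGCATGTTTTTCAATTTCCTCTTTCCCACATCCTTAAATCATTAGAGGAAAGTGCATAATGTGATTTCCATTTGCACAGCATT

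Most sites near C-type lectin genes were called in the monocyte-derived list, as were most sites of the series. The share called in the converted list was below that of the series. Of the 41 member sites, 39 (95.1%, 83.9 to 98.7%) were called in the monocyte-derived list, 17 (41.5%, 27.8 to 56.6%) in the resident list and 7 (17.1%, 8.53 to 31.3%) in the converted list. Over all sites of the series these shares were 85.5%, 55.4% and 35.2%, with only the converted one outside the interval of the members. Monocyte-derived cells alone accounted for 23 sites, or 56.1% (41.0 to 70.1%), where the background was 39.5%. Another 9 (22.0%, background 14.4%) were shared by the monocyte-derived and resident lists only. All 3 lists called 6 (14.6%, 6.88 to 28.4%), where the background was 28.1%. Of the remaining 3 sites, 2 were resident only (4.88%, against 11% of all sites) and 1 was shared by the monocyte-derived and converted lists (2.44%, against 3.56%). Sites in converted cells alone (1.55% of all sites) or in both tissue lists without the monocyte-derived one (1.94%) are rare in the series, and 0 of the 41 member sites were of either kind.

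Per gene, 22 of 33 members (66.7%) had a monocyte-derived site, against 60.2% of all genes. A resident site was present at 14 (42.4%, background 54.0%) and a converted site at 5 (15.2%, 6.65 to 30.9%, background 43.2%). The median member had 1 monocyte-derived, 0 converted and 0 resident sites, and the median gene 1, 0 and 1. No site in any list was present at 11 members (33.3%), close to the 36.5% of all genes. These were Clec4a4, Clec2h, Clec2g, Clec2f, Clec2e, Clec4f, Clec4g, Clec18a, Clec3a, Clec3b and Clec14a. They include genes known from other cells, such as Clec4f of Kupffer cells, Clec4g of liver sinusoidal endothelium and Clec14a of vascular endothelium. Other such genes, Clec9a of dendritic cells and Clec1b of platelets, did have sites in their windows.

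**Figure D1:**
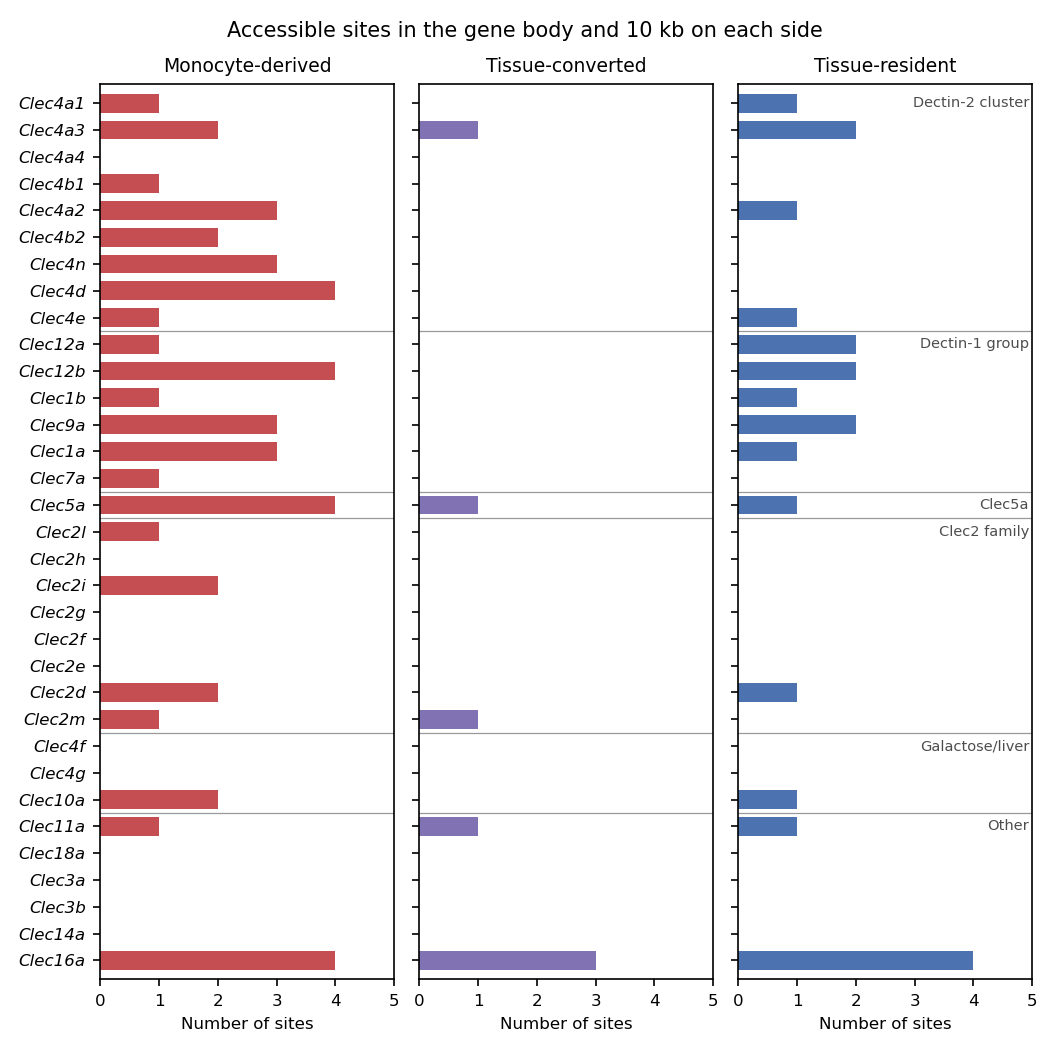
Number of sites (horizontal axis) assigned to each of the 33 members, flanks of 10 kb included (rows, ordered by role), with 1 panel per merged list and a site shared by neighbours drawn at each of them. Bars fill most rows in the monocyte-derived panel (22 members) and few in the converted panel (5 members).

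The first comparison asked how resident differ from monocyte-derived macrophages at these genes. Resident cells had fewer sites at 15 members (45.5%, against 35.0% of all genes), more at 1 (3.03%, against 7.59%) and equal numbers at 17. Site by site, 24 were called in the monocyte-derived list but not the resident list and 2 in the resident list but not the monocyte-derived list, a net of -22. The member with more resident sites was Clec12a, which encodes an inhibitory receptor for uric acid crystals, with 2 resident, 1 monocyte-derived and 0 converted sites. At equal list lengths its resident minus monocyte-derived net turned to -1, and it was 0 with p at most 1e-05 or 1e-10, in the gene body alone and with 50 kb on each side.

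The second comparison set converted against monocyte-derived macrophages, which share their monocyte-derived list with the first. Converted cells had fewer sites at 20 members (60.6%, against 45.3% of all genes) and more at 0 (background 1.81%). All 32 sites on which these lists disagreed were on the monocyte-derived side, a net of -32. Between the tissue lists, converted cells had fewer sites than resident cells at 12 members (36.4%, against 29.2% of all genes) and more at 1, Clec2m (3.03%, against 4.44%), with a net of -10.

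The lists differ in length, with 33694 monocyte-derived, 15552 converted and 24348 resident peaks, so the comparisons were repeated with every list reduced to its 15552 peaks of smallest p-value. The tilt towards monocyte-derived cells was still present. Of the 23 member sites left, 21 (91.3%, 73.2 to 97.6%) were in the monocyte-derived list, where the background was 61.7%. The converted list held 7 (30.4%, 15.6 to 50.9%, background 53.3%) and the resident list 5 (21.7%, 9.66 to 41.9%, background 56.8%). Monocyte-derived sites exceeded resident sites at 13 members (39.4%, against 19.8% of genes) and converted sites at 13 (39.4%, against 19.2%). The order of the tissue lists did not hold. Resident sites exceeded converted ones at 2 members (6.06%, background 16.7%), converted exceeded resident at 4 (12.1%, background 14.8%), and the net turned from -10 to 2.

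The resident calls at these genes were weak by the authors' own p-values. Of 20 resident peaks in member sites, 11 (55.0%) had a p above 1e-05, the value in the names of the lists, against 22.5% of the whole resident list. None of the 45 monocyte-derived peaks did, where 3.76% of that list does, and the converted list, with 10 peaks at members, holds no such peak at all. With p at most 1e-05 in every list, member sites numbered 39 monocyte-derived, 7 converted and 8 resident, and the converted minus resident net was -1. At the p-value floor of 1e-12 were 8.89% of monocyte-derived peaks of members (18.5% of that list), 5.00% of resident peaks (12.9%) and 0% of converted peaks (19.9%).

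**Figure D2:**
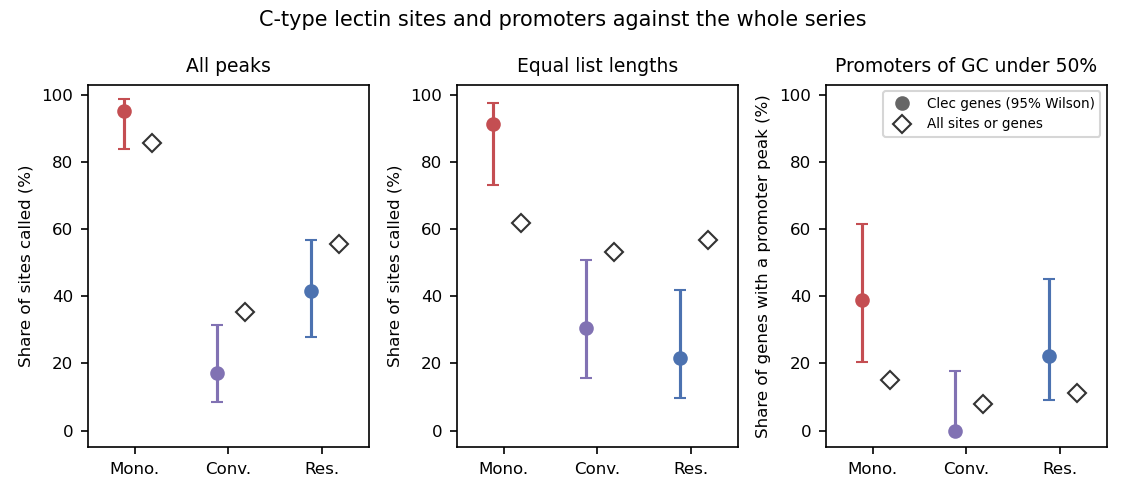
Share (vertical axes, %) for monocyte-derived, converted and resident lists of member sites called with all peaks (left), of member sites called at equal list lengths (middle) and of members of upstream GC under 50% with a peak in the promoter window (right), as filled points with 95% Wilson intervals beside open diamonds for all sites or genes of the same kind. At equal lengths 91.3% of member sites were monocyte-derived, against 61.7% of all sites.

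The Dectin-2 cluster held the largest group of sites. This run of 9 genes encodes Dectin-2 (Clec4n), a receptor for fungal mannans, MCL (Clec4d) and Mincle (Clec4e), which bind mycobacterial glycolipid, the Dcir receptors and the DCAR receptors. All of its 16 sites were called in the monocyte-derived list, 5 in the resident list and 1 in the converted list, and 11 were monocyte-derived only. Over all sites of the series, 85.5% were monocyte-derived, 55.4% resident, 35.2% converted and 39.5% monocyte-derived only. At equal list lengths the counts were 11, 2 and 1 of 12 sites, against 61.7%, 56.8% and 53.3% of all sites. With p at most 1e-05 they were 16, 2 and 1. Clec4a4, which encodes Dcir2, was the only one of the 9 genes with no site.

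Within the cluster the stretch from Clec4b2 to Clec4d, picked after seeing the counts, had 8 sites. All were in the monocyte-derived list and none in either tissue list, a class that held 39.5% of all sites. Clec4d had 4, 0 and 0 sites in the monocyte-derived, converted and resident lists. They lay at chr6:123252839-123253038 and chr6:123260339-123260413 outside genes, and at chr6:123265914-123266138 and chr6:123267039-123267113 inside Clec4d. The first of these, with a deposited p-value of 7.44e-09 among the smallest 21.9% of its list, also fell in the window of Clec4n. Clec4n had 3, 0 and 0 sites, the others at chr6:123227614-123227788 outside and chr6:123244289-123244463 inside the gene. Clec4b2, a DCAR gene, had 2, 0 and 0 sites, at chr6:123170239-123170363 and chr6:123171139-123171313, both outside genes. At equal list lengths Clec4d had 3, Clec4n 2 and Clec4b2 1 monocyte-derived site. Shortening a list only removes peaks, so the tissue counts of 0 could not change in that setting.

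The Dcir genes, whose products include inhibitory receptors of myeloid cells, were the part of the cluster with most tissue calls. Clec4a3 had 2 monocyte-derived, 1 converted and 2 resident sites. Its start site was covered by chr6:122952439-122952763, called in all 3 lists with a p-value of 1e-12 in monocyte-derived, 3.77e-07 in converted and 1.31e-05 in resident cells, and the other site, chr6:122946839-122947063, lay 5.45 kb outside the gene. Clec4a2, the Dcir1 gene, had 3, 0 and 1 sites, with chr6:123123139-123123538 inside the gene shared by monocyte-derived and resident cells and chr6:123116364-123116588 and chr6:123116639-123116863 in monocyte-derived cells only. Clec4a1 (Dcir4) and Clec4e had 1, 0 and 1 sites each, and Clec4b1 had 1, 0 and 0. With p at most 1e-05, and also at equal list lengths, Clec4a1 and Clec4a3 had 0 resident sites. In both settings Clec4a2 and Clec4e kept 1 resident site each and Clec4a3 its 1 converted site.

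**Figure D3:**
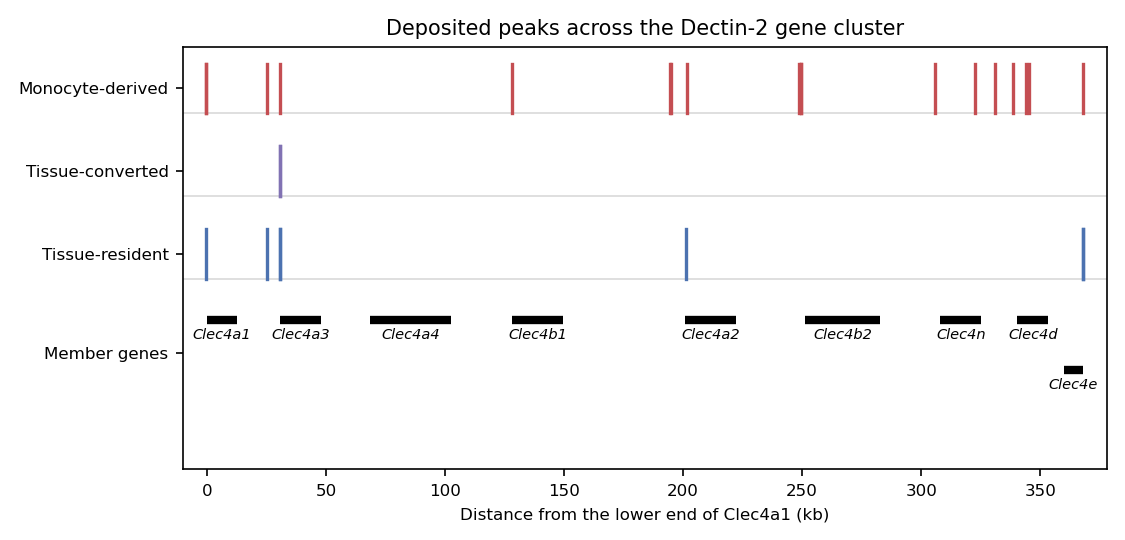
Deposited peaks (vertical ticks at peak centres) of the 3 merged lists along the Dectin-2 cluster, against distance from the lower-coordinate end of Clec4a1 in kb, with gene bodies as black bars. Only peaks of member sites, within 10 kb of a member, are drawn, so the gap between Clec4b1 and Clec4a2 is not free of peaks. Monocyte-derived ticks (16 sites) lie on both sides of an empty stretch that holds Clec4a4, while converted cells have 1 site, at Clec4a3.

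The 6 genes around Dectin-1 had 7 sites, 6 in the monocyte-derived list, 4 in the resident list and none in the converted list. These lists held 85.5%, 55.4% and 35.2% of all sites. At equal list lengths 2 sites were left, both monocyte-derived, at Clec12a and Clec7a. Clec7a itself had 1, 0 and 0 sites in the monocyte-derived, converted and resident lists, at chr6:129472764-129472938 across its start, with a p-value of 3e-06. Clec12a had the shared site chr6:129349939-129350263, with a p-value of 1.52e-06 in monocyte-derived and 8.27e-06 in resident cells, and the resident-only site chr6:129349614-129349738, with a p-value of 1.31e-05.

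The neighbouring genes Clec12b, Clec1b, Clec9a and Clec1a overlap in their windows and share 4 sites. Clec9a encodes DNGR-1, a receptor of dendritic cells for dead-cell actin, and Clec1b encodes CLEC-2, the podoplanin receptor of platelets. Clec12b encodes an inhibitory receptor. The sites chr6:129407389-129407538 and chr6:129434264-129434513 were called in monocyte-derived and resident cells, and chr6:129427414-129427513 and chr6:129436114-129436313 in monocyte-derived cells alone. Of these, chr6:129407389-129407538 lay inside Clec12b, chr6:129427414-129427513 inside both Clec12b and Clec1a, and the others inside Clec1a. Counted gene by gene, Clec12b had 4 monocyte-derived and 2 resident sites, Clec9a 3 and 2, Clec1a 3 and 1, and Clec1b 1 and 1. None of the 4 sites was left at equal list lengths.

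**Figure D4:**
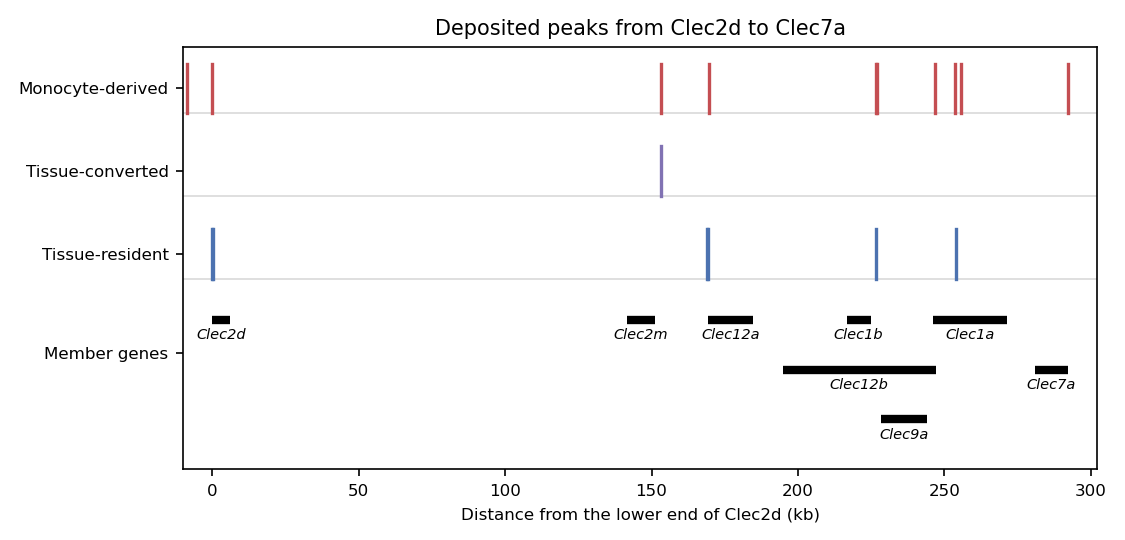
Deposited peaks (vertical ticks at peak centres) of the 3 merged lists from Clec2d to Clec7a, against distance from the lower-coordinate end of Clec2d in kb, with gene bodies as black bars. Only peaks of member sites, within 10 kb of a member, are drawn, so a gap between member windows is not free of peaks. Among member sites, converted cells have a single site here, beside Clec2m, and none over the 6 genes from Clec12a to Clec7a.

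Clec5a encodes MDL-1, an activating myeloid receptor that signals through the adaptor DAP12. It had 4 monocyte-derived, 1 converted and 1 resident site. The site chr6:40576414-40576613, inside the gene, was called in all 3 lists with p-values of 3.38e-06 in monocyte-derived, 4.70e-06 in converted and 1.20e-05 in resident cells. The monocyte-derived-only sites were chr6:40573714-40573938, chr6:40594889-40595113 and chr6:40595164-40595413, all outside genes. At equal list lengths Clec5a had 0 monocyte-derived, 1 converted and 0 resident sites.

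The Clec2 family includes surface ligands of the Nkr-p1 receptors of natural killer cells. Its 8 genes had 6 sites, all in the monocyte-derived list, 1 in the converted list and 1 in the resident list. These lists held 85.5%, 35.2% and 55.4% of all sites. Clec2d, whose product Clr-b inhibits natural killer cells, had 2, 0 and 1 sites. The site chr6:129180389-129180788 spanned its start, with a p-value of 1.50e-06 in monocyte-derived and 1.05e-05 in resident cells, and chr6:129171764-129171888 lay outside genes. Clec2i, which encodes Clr-g, had 2, 0 and 0 sites, at chr6:128887514-128887588 and chr6:128888814-128889013, both also inside the overlapping gene BC035044. The site of Clec2m, chr6:129333889-129334063, was the only member site shared by monocyte-derived and converted cells alone, and its converted p-value of 7.44e-09 was the smallest of any converted peak at a member. The single Clec2l site, in monocyte-derived cells, lay inside the neighbouring gene Hipk2.

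Clec10a encodes MGL1 (CD301a), a galactose-binding lectin widely used as a marker of alternatively activated macrophages. It had 2 monocyte-derived, 0 converted and 1 resident site. The shared site chr11:70166464-70166638 lay across the lower end of the gene, with a p-value of 6.91e-06 in monocyte-derived and 1.05e-05 in resident cells, and chr11:70166714-70166888 just inside it was monocyte-derived only. At equal list lengths the counts were 1, 0 and 0.

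A pair of members that encode no phagocyte surface receptor held much of the converted signal. Clec16a, which encodes an endolysosomal protein of mitophagy, had 4 monocyte-derived, 3 converted and 4 resident sites, and Clec11a, which encodes a secreted growth factor, had 1 of each. Together they gave 4 of the 7 converted sites and 4 of the 6 sites called in all lists. At Clec16a the sites in all lists were chr16:10545164-10545363 at its start, chr16:10542964-10543263 inside the neighbouring gene Dexi and chr16:10754514-10754838 outside genes. Of its other sites, chr16:10676864-10676963 was resident only and chr16:10713539-10713688 monocyte-derived only. The Clec11a site, chr7:44304814-44305563, lay inside the gene and was the widest of the members at 750 bp. Without both genes, the other 31 members had 34 monocyte-derived, 3 converted and 12 resident sites. The converted sites left were those of Clec4a3, Clec5a and Clec2m.

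Promoter windows, from 250 bases before to 50 bases after a RefSeq start, were found for 26 of the 33 members. A window was absent from the RefSeq table for Clec4a4, Clec4n, Clec2f, Clec1a, Clec3a, Clec3b and Clec10a. A monocyte-derived peak overlapped the window at 9 members (34.6%, background 42.5%), a resident peak at 6 (23.1%, background 35.6%) and a converted peak at 2 (7.69%, 2.14 to 24.1%, background 28.7%). The converted promoters were Clec4a3 and Clec16a. Resident cells added Clec4a1, Clec4e, Clec2d and Clec12a, and monocyte-derived cells further Clec7a, Clec4b1 and Clec2i, so that the resident set lay within the monocyte-derived set and the converted set within both.

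Member promoters were poor in GC. The 250 upstream bases had a median GC content of 43.0% in members and 55.6% in all 17274 genes with a window, and 18 of 26 members (69.2%) lay under 50%, against 32.3% of genes. Among genes under 50%, a monocyte-derived peak overlapped 7 of 18 member windows (38.9%, 20.3 to 61.4%, background 15.0%), a resident peak 4 (22.2%, 9.0 to 45.2%, background 11.3%) and a converted peak 0 (0 to 17.6%, background 7.97%). The promoters of Clec7a and Clec4e printed above, at 41.6% and 39.6% GC, are of this kind, and Clec4a3 is not, at 53.2%. The part of GC content in the calls was not tested.

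**Figure D5:**
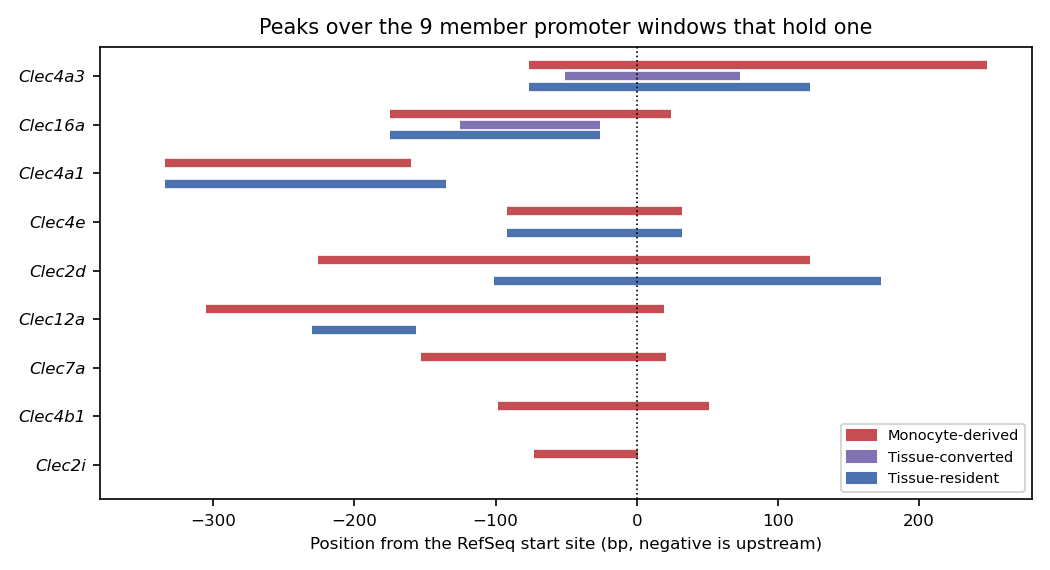
Extent of deposited peaks (coloured bars) around the RefSeq start site (0, dotted line) of the 9 members with a peak in the promoter window, in bp along the gene, using the outermost start where there are several. Monocyte-derived bars are present at all 9, resident bars at 6 and converted bars at Clec4a3 and Clec16a.

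For comparison between promoters, 6 motifs were searched on both strands of the windows. STAT6-type sites (TTCNNNNGAA) were present in 4 of 26 members (15.4%, against 7.45% of genes), namely Clec4a1, Clec4b2, Clec5a and Clec7a. The match in Clec7a began 125 bases before the start, in the capitals printed above. C/EBP sites (TTGCNNAA) were in 5 members (19.2%, against 11.8%), among them Clec4e, where the match began 66 bases before the start under both the monocyte-derived and the resident peak. The letters of the TATA motif (TATAAA) were in 8 (30.8%, against 14.9%), at any position and on either strand, with the match in Clec4e on the gene's strand and beginning 29 bases before the start, and AP-1 sites (TGANTCA) in 6 (23.1%, against 8.19%). The NF-kappaB motif (GGGNNTTTCC) was in 1, Clec2l (3.85%, against 1.89%), and the PU.1 motif (GAGGAAGT) in 0 (background 3.66%). No matches to different motifs began within 10 bases of each other in a member window. Of the 9 members with a promoter peak, 2 had a STAT6-type, 4 a C/EBP, 2 a TATA and 1 an AP-1 match in the window, and 0 an NF-kappaB or PU.1 match. The background was all genes, not matched for GC content, whose part in the matches was not tested. A match describes letters only and not binding.

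Genes that act downstream of these receptors had 135 monocyte-derived, 43 converted and 68 resident sites, in the order of list length, which also holds over all sites. They were not counted at equal list lengths. Of 33 signalling genes, 32 had a monocyte-derived, 29 a resident and 22 a converted site, where 60.2%, 54.0% and 43.2% of all genes did, and the median gene had 4 monocyte-derived, 1 resident and 1 converted site. Resident sites were fewer than monocyte-derived ones at 27 of 33 (35.0% of all genes) and more at 3 (7.59% of all genes). Converted sites were fewer than monocyte-derived ones at 29 (45.3% of all genes) and more at 0 (1.81% of all genes). Syk, the kinase common to activating lectins, had 7 monocyte-derived, 0 converted and 1 resident site. Tyrobp, which encodes DAP12, and its neighbour Hcst, whose windows overlap, had 6, 0 and 2 each. The counts were 12, 1 and 2 for Nfkb1, 13, 4 and 7 for the calcineurin gene Ppp3ca, 7, 1 and 4 for Vav1, 6, 4 and 2 for Egr2, and 4, 0 and 0 for the phosphatase gene Inpp5d.

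Among 50 C-type lectin domain genes that do not carry the Clec name, 23 had a monocyte-derived, 13 a resident and 11 a converted site, and 25 had none. These shares lie below the 60.2%, 54.0% and 43.2% of all genes. Resident sites were fewer than monocyte-derived ones at 17 of 50, close to the 35.0% of all genes, and more at 2. Converted sites were fewer than monocyte-derived ones at 19 of 50, below the 45.3% of all genes, and more at 2. Olr1, the LOX-1 gene, had 6 monocyte-derived, 2 converted and 3 resident sites. Mrc1, the mannose receptor gene, had 3, 0 and 2, Ly75, which encodes DEC-205, 5, 2 and 3, and Thbd 5, 2 and 3. Cd302 and Bcan each had 3, 0 and 0. Cd69 went the other way between the first and last list, at 1, 0 and 2.

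The labelled cell type was checked against markers. All 8 macrophage markers had monocyte-derived and resident sites (1 to 4 per gene in each list), and 3 had converted sites, where 60.2%, 54.0% and 43.2% of all genes have a monocyte-derived, resident and converted site. B cell markers had 3, 2 and 2 sites in monocyte-derived, converted and resident cells, with Ms4a1 and Pax5 among those at none. No site was found at any of the 4 mast cell markers, at 4 of 5 mesothelial and stromal markers or at 4 of 6 T and NK cell markers, Cd3e, Cd8a, Tcf7 and Ncr1. The other T and NK cell markers, Cd3g with 2, 0 and 0 and Gata3 with 1, 1 and 1, brought that list to 3, 1 and 1, and Pdgfra, the other stromal marker, had 1, 0 and 1. All 6 dendritic cell markers had monocyte-derived sites, with 3 having resident and 2 converted sites, and summed over the list there were 20, 5 and 8 sites in monocyte-derived, converted and resident cells. Their part in the lectin counts was not tested. Eosinophil markers had 4, 1 and 3 sites, with Epx and Prg2 at none, and neutrophil markers 1, 1 and 2, with Ly6g and S100a9 at none.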

How the data were processed

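Each list gives 1 p-value per peak as the authors deposited it, with no counts, heights or replicate calls. The submitters' processing notes name Bowtie2 2.2.9 and the build mm10, which is GRCm38. The peak caller, its threshold, read shifting, duplicate handling and the making of 1 list from 3 samples were not given in the sources used here. Any of them could alter which sites a list holds. P-values described peaks and ranked or filtered them, in some settings with 1 threshold for all lists, whose p-values may not be comparable, and depth is unknown. Sites were merged and counted in Python 3.11.15 with numpy 2.4.6 and pandas 2.3.3, and figures drawn with matplotlib 3.10.9. Gene positions, strands and promoters came from RefSeq tables of GRCm38.p6. The net of a comparison is the number of sites in the first list only minus that in the second only. On simulated peaks, all 1800 sites and 1805 gene windows were recovered. The simulated sites lay well apart with at most 1 peak per list. Close neighbours and several peaks of a list in a site, both present in the data, were therefore not tried. Every member was named, sites were located where a member had at least 2 or where all lists or the p-value floor were reached, and of each other list the 8 genes with the widest difference between lists were named, except for a gene not reported here. Members, lists, motifs and tests were chosen with earlier results of these data known. The GC limit, the equal-length backgrounds and the stretch from Clec4b2 to Clec4d were added after seeing the data. A planned search of protein motifs was not run. Counts were repeated under 8 planned and 2 added settings.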

Additional observations from a re-analysis of the deposited data

How the results depend on the processing

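Monocyte-derived cells had the most member sites in every setting run. Their list is the longest as deposited, so this order cannot be told apart from list length except at equal list lengths. The monocyte-derived, converted and resident counts of 39, 7 and 17 became 4, 0 and 1 with p at most 1e-10, 22, 4 and 12 in the gene body alone, 87, 24 and 40 with 50 kb on each side, and 21, 7 and 5 at equal list lengths. With p at most 1e-05 in every list the resident count was 8, and without Clec16a the converted count was 4, or 3 without Clec11a as well. The net of resident minus monocyte-derived was -3 with p at most 1e-10, -10 in the gene body and -47 with 50 kb. That of converted minus monocyte-derived was -4, -18 and -63 in the same settings and -14 at equal lengths. That of converted minus resident was -1 with p at most 1e-10 and with p at most 1e-05, -16 with 50 kb, and turned to 2 at equal lengths, where the cause was not tested. The nets of single members turned direction in 8 of 528 values, moved without turning in 184 and stayed about the same in 336. A net of 0 as reported could not turn. Converted minus resident became 1 at Clec16a and at Clec4a3, both with p at most 1e-05 and at equal lengths, and -3 at Clec2m with 50 kb. Converted minus monocyte-derived became 1 at Clec5a at equal lengths, and resident minus monocyte-derived became 1 at Clec2m with 50 kb and -1 at Clec12a at equal lengths. The settings without Clec16a or Clec11a were chosen after seeing the data. No paired analysis was possible because the calls of all samples of a group stand in a single list, which also prevents omitting any one replicate. Depth limits every absence of a call.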
